A study of Homo sapiens with 6 samples.

Results

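The kallikrein-related peptidases KLK5 to KLK14 are 10 neighbouring genes of chromosome 19. They were found in the deposited matrix by their gene symbols, 10 of 58884 rows, each symbol on 1 row. Their mRNA was followed in KYSE450 cells and in KEAP1null-KYSE450 cells, with 3 RNA sequencing libraries of each line. KYSE450 is a human esophageal squamous cell carcinoma line with wild-type NRF2. KEAP1null-KYSE450 is a single clone derived from it by CRISPR-Cas9 editing of KEAP1, the adaptor that marks NRF2 for degradation. Both lines were grown without treatment in RPMI1640 with 10% fetal bovine serum. As only 1 clone was sequenced, an effect of the edit and a difference between that clone and the uncloned parental culture cannot be told apart, and p-values measure the spread between these libraries, which may be technical.

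Kallikrein-related peptidases are secreted serine proteases made as inactive precursors. In the upper layers of stratified squamous epithelia they activate one another in a cascade that cuts the desmosomal cadherins and lets surface cells be shed, while LEKTI, the product of SPINK5, holds them in check. Steroid hormones regulate many of these genes, and several of their products are measured as markers of carcinomas.

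Summed over genes, the libraries held 53027359 to 61543442 counted reads. In each of them 1 read was worth between 0.923 and 1.07 normalized counts, and every value was a whole multiple of this step. In KYSE450 library 2 and KEAP1null-KYSE450 library 3 the step was nearer to 1 than the check of recovered reads allowed. Read numbers given for these libraries carry that limit. KEAP1 mRNA itself had overlapping values in the 2 lines, with 5760, 5226 and 5146 normalized counts in KYSE450 and 5737, 4906 and 5317 in KEAP1null-KYSE450 (log2 fold change -0.017, limma adjusted p = 0.90, a sign that 4 alternatives turned). NFE2L2, the gene of NRF2, had a log2 fold change of -0.47 (adjusted p = 0.00063), under the fold threshold, and NQO1, a standard NRF2 target, rose by 2.70 on the log2 scale (adjusted p = 3.9e-10). All 8 squamous epithelial markers passed the filter, 1 called higher and 3 lower, with a mean of 208100 and 568250 normalized counts for KRT5 in the 2 lines and of 21769 and 14376 for TP63. KRT5 was the marker called higher, and KRT6A, KRT14 and KRT17 were those called lower. The mean of KRT14 was 2401 normalized counts in KYSE450 and 34.5 in KEAP1null-KYSE450. KRT6A had means of 71578 and 2738 normalized counts in the 2 lines, and KRT17 of 50937 and 1763. Over all genes tested, the shares called were 12.2% higher and 5.98% lower. None of the 5 leukocyte markers passed the filter. Their summed level lay between 1.86 and 12.1 normalized counts in KYSE450 and between 9.17 and 12.0 in KEAP1null-KYSE450. Within that sum, LYZ had 0, 3.03 and 0 normalized counts in KYSE450 and 10.2, 4.08 and 9.08 in KEAP1null-KYSE450. PTPRC went the other way, with 1.07, 8.09 and 0 against 0, 0 and 1.01. Of 6 fibroblast markers 1 passed, COL1A1, and their sum lay between 622 and 853 normalized counts in KYSE450 and between 349 and 436 in KEAP1null-KYSE450. COL1A1 had a log2 fold change of -0.85 (limma adjusted p = 0.00074), under the fold threshold. Below the filter, LUM had 6.42, 14.2 and 14 normalized counts in KYSE450 and 0 in each KEAP1null-KYSE450 library. PDGFRB, also below it, had 0, 1.01 and 0 against 12.9, 5.1 and 0. LYZ, PTPRC, LUM and PDGFRB were chosen after their values were seen. Of 4 endothelial markers VWF and CDH5 passed, PECAM1 had no read, and the sum lay between 59.9 and 74.8 against 48.0 and 70.6 normalized counts. CDH5 was called lower, with means of 19.9 and 1.97 normalized counts (log2 fold change -2.77, adjusted p = 0.0048), and VWF was not called (0.25). CDH5 passed the filter through KYSE450 only, and fell under it without KYSE450 library 2 or KYSE450 library 3. The part of these markers in the results on the kallikreins was not tested.

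Few reads were counted for the family in either line, with 1 exception. KLK10 alone passed the filter of a mean of at least 10 normalized counts, and KLK10 fell in KEAP1null-KYSE450. The other 9 members lay below the filter. Among these, KLK5, KLK6, KLK7 and KLK14 had between 8 and 19 reads over all 6 libraries, KLK11 and KLK13 had 1 read each, and KLK8, KLK9 and KLK12 had none. For comparison, 33.9% of 19869 protein-coding genes lay below the filter and 18.6% had no read in any library.

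**Figure D1:**
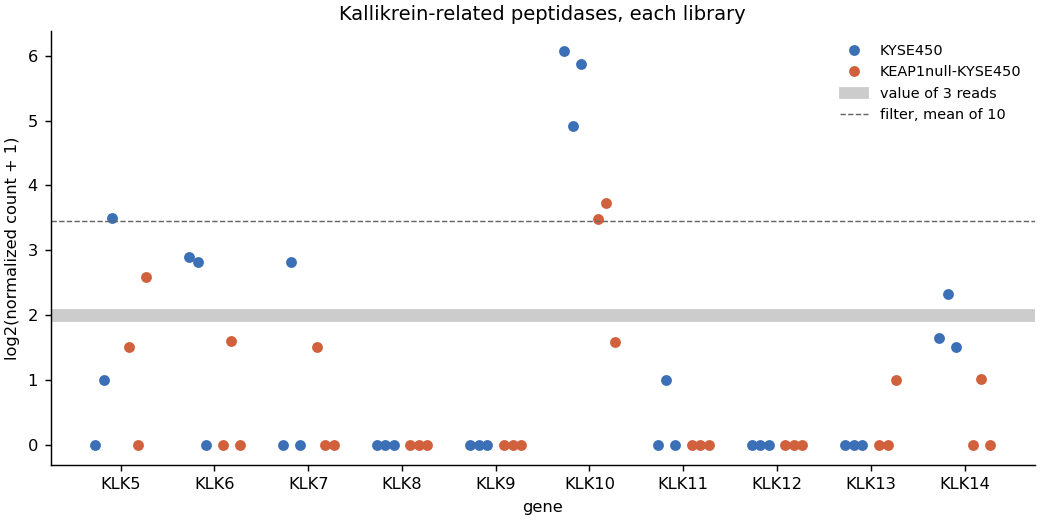
Level of each member in each library, as log2 of the normalized count plus 1; blue points are the 3 KYSE450 libraries, orange points the 3 KEAP1null-KYSE450 libraries, the grey band is the value of 3 reads (2.77 to 3.21 normalized counts) and the dashed line the filter. KLK10 stands above the other members in KYSE450, while KLK8, KLK9 and KLK12 sit at 0 in all 6 libraries.

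KLK10 (ENSG00000129451) was first described as a gene of normal epithelial cells that many tumours express less. In hg38 it spans 51012739 to 51020175 of chromosome 19, minus strand, and its canonical transcript has 6 exons. The RefSeq promoter window of the member on which the result turns is given for reference, 250 bases before and 50 after an annotated start, on the minus strand at chr19:51019660-51019959 of GRCh38.p14, with its 11 CpG dinucleotides in capitals.
KLK10: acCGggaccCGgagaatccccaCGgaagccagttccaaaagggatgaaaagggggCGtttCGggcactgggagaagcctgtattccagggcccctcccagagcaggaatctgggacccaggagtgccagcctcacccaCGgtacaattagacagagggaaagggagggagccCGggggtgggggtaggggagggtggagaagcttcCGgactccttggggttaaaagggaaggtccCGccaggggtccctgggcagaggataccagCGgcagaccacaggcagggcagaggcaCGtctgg

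KLK10 had 66.3, 29.3 and 57.8 normalized counts in the KYSE450 libraries, from 62, 29 and 62 reads. It had 10.2, 12.2 and 2.02 normalized counts in the KEAP1null-KYSE450 libraries, from 11, 12 and 2 reads. Each KEAP1null-KYSE450 library was below each KYSE450 library, and library 3 of KEAP1null-KYSE450 was under the value of 3 reads. Of all genes tested, 29.3% had every KEAP1null-KYSE450 library below every KYSE450 library. The means were 51.1 ± 19.4 and 8.13 ± 5.40 normalized counts (SD, n = 3 libraries each), a 6.29-fold lower mean. In bulk RNA, fewer cells with KLK10 mRNA and less KLK10 mRNA per cell cannot be told apart.

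On the scale of log2 of the normalized count plus 1, the fold change of KLK10 was -2.69 (standard error 0.59, 95% interval -3.97 to -1.41, limma adjusted p = 0.0023), past both thresholds, which were 0.05 for the adjusted p and 1 for the log2 fold change in either direction. This was 1 member called lower and 0 called higher of the 1 tested. Of all 16701 genes tested 18.2% were called, 12.2% higher and 5.98% lower, and of those with a mean of 10 to 100 normalized counts 7.25% were called lower. With the libraries brought to the same distribution by quantile normalization, the split of calls was 1388 higher and 1289 lower against 2045 and 999 as deposited, and the fold change of KLK10 was -3.33. An exact permutation test of the KLK10 counts gave p = 0.1 (two-sided), the smallest that 3 libraries against 3 allow.

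The size of the KLK10 change was known less well than its sign. Summed over the 3 libraries of a line, there were 153 reads in KYSE450 (exact Poisson 95% interval 129.7 to 179.3) and 25 in KEAP1null-KYSE450 (16.2 to 36.9), intervals that cover counting error only. The level in KEAP1null-KYSE450 alone was under the filter, which KLK10 passed through KYSE450. The log2 fold change lay between -3.33 and -1.75 over 16 other settings. On the reads of 4 libraries it was -2.43 with edgeR (adjusted p = 0.0033) and -2.47 with DESeq2 (adjusted p = 0.0012). These count tests left out KYSE450 library 2 and KEAP1null-KYSE450 library 3, which had the fewest KLK10 reads of their line, 29 and 2. Without KEAP1null-KYSE450 library 3 alone, the log2 fold change was -2.02. Tested against a fold change of 2 rather than against no change, it missed the threshold (limma adjusted p = 0.098). KLK10 overlaps an antisense long noncoding RNA, ENSG00000268739, which had 0 reads. Whether reads were counted by strand is not given in the sources used here.

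**Figure D2:**
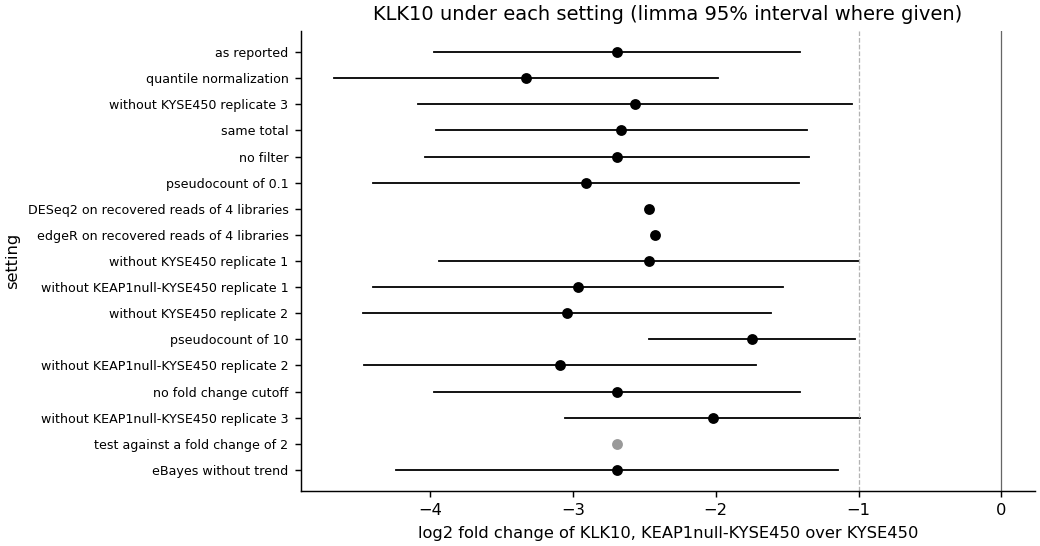
Log2 fold change of KLK10 between KEAP1null-KYSE450 and KYSE450 under each setting; points are estimates, lines the limma 95% intervals where the setting gives one, black points passed an adjusted p under 0.05 and the grey point did not. All estimates lie between -3.33 and -1.75, and the test against a fold change of 2 is the setting at which the call is lost.

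KLK5, KLK7, KLK6 and KLK14 are trypsin-like or chymotrypsin-like proteases of the epithelial cascade or of the nervous system, and their means were below the filter of the test across genes. KLK5, a trypsin-like protease that starts the cascade by activating others, had 0, 1.01 and 10.3 normalized counts in KYSE450 and 1.85, 0 and 5.04 in KEAP1null-KYSE450. The groups overlapped, 11 of the 12 KYSE450 reads came from 1 library, and an exact permutation test gave p = 0.9 (two-sided). KLK7, the chymotrypsin-like protease that cuts corneodesmosin, had 0, 6.06 and 0 normalized counts in KYSE450 and 1.85, 0 and 0 in KEAP1null-KYSE450. All 6 of its KYSE450 reads were in library 2, and the exact permutation test gave p = 1.

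KLK6, a trypsin-like protease abundant in brain, had 6.42, 6.06 and 0 normalized counts in KYSE450 and 0, 2.04 and 0 in KEAP1null-KYSE450. Libraries 1 and 2 of KYSE450 stood above the others, but library 3 had no read, so that the groups overlapped (exact permutation test, two-sided p = 0.4). KLK14, a trypsin-like protease that activates PAR2, had 2.14, 4.04 and 1.86 normalized counts in KYSE450 and 0, 1.02 and 0 in KEAP1null-KYSE450. Its groups did not overlap, with 8 reads against 1, and the exact permutation test gave the smallest possible p of 0.1. Among genes with a mean of 1 to 10 normalized counts, 5.96% had every KEAP1null-KYSE450 library below every KYSE450 library. Without the filter, limma gave KLK14 an adjusted p of 0.076, KLK6 0.25, KLK7 0.68 and KLK5 0.93, so none of these was called.

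The counting intervals of these members were wide. Over the 3 libraries of a line, KLK5 had 12 reads in KYSE450 (exact Poisson 95% interval 6.20 to 21.0) and 7 in KEAP1null-KYSE450 (2.81 to 14.4), which overlap. KLK6 had 12 (6.20 to 21.0) against 2 (0.242 to 7.22) and KLK14 8 (3.45 to 15.8) against 1 (0.0253 to 5.57). KLK7 had 6 (2.20 to 13.1) against 2 (0.242 to 7.22). With so few reads, no fold is given for these 4 genes.

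**Figure D3:**
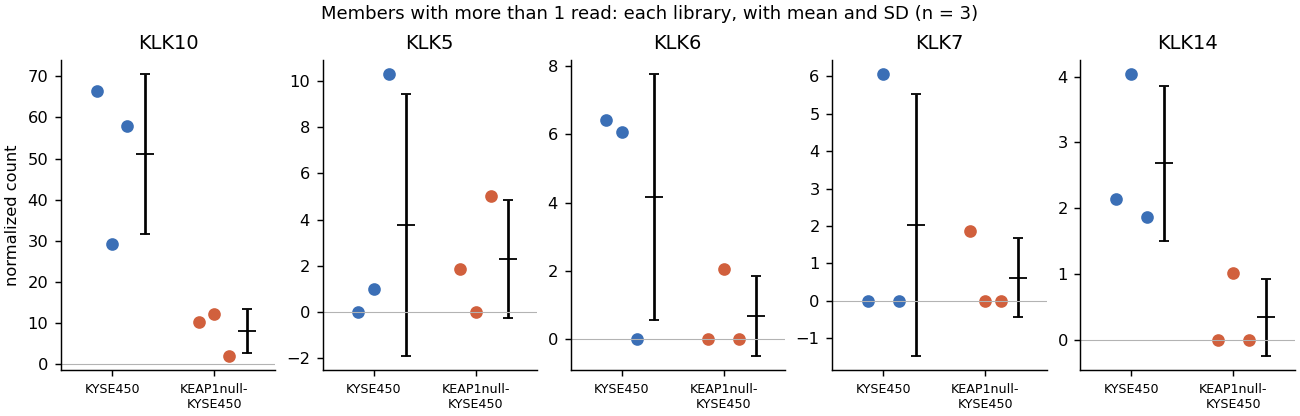
Normalized counts of the 5 members with more than 1 read, each panel on its own linear axis; points are libraries, and the black mark with its bar is the mean and SD of 3 libraries (a bar may reach below 0, which a count cannot). The lines are apart for KLK10 and KLK14 and overlap for KLK5, KLK6 and KLK7.

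KLK11, known as hippostasin, had a single read, in KYSE450 library 2. KLK13, found in esophagus and tonsil among other tissues, had a single read, in KEAP1null-KYSE450 library 3. KLK8, also called neuropsin, KLK9 and KLK12 had 0 reads in each library. With 0 reads a library allows up to 3, which is 2.77 to 3.21 normalized counts, so a difference between the lines in these 5 genes was not detectable at this depth. KLK8 and KLK9 overlap each other and the protein-coding gene ENSG00000269741 on the same strand, and all 3 had 0 reads. Reads that fall on overlapping genes can be left uncounted, so a count of 0 for these genes does not show that they were silent.

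Summed over the 10 members, the reads numbered 70, 47 and 75 in KYSE450 and 15, 15 and 8 in KEAP1null-KYSE450. KLK10 held most of them. Without KLK10, the other 9 members had 8, 18 and 13 reads in KYSE450 and 4, 3 and 6 in KEAP1null-KYSE450. In KYSE450 library 3, 11 of these 13 reads were of KLK5, whose own groups overlapped. Of the reads counted on genes, these are 39 (27.7 to 53.3) of 169884024 against 13 (6.92 to 22.2) of 169374868. The sums are given as a description with no test. Between 3 and 6 of the 10 members had a read in a KYSE450 library, and 3 had one in each KEAP1null-KYSE450 library.

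Per kb of annotated exon, KLK10 had the highest level in KYSE450, with 13.5 normalized counts per kb (range over libraries 7.72 to 17.5). KLK5 followed with 2.27 (0 to 6.20), then KLK14 with 2.25 (1.57 to 3.40), KLK6 with 2.11 (0 to 3.25) KLK7 with 0.826 (0 to 2.48) and KLK11 with 0.108 (0 to 0.325) normalized counts per kb. The range of KLK10 did not overlap that of KLK5, the next, while the ranges of neighbours from KLK5 to KLK11 overlapped. In KEAP1null-KYSE450 the order per kb was KLK10 with 2.14 (0.531 to 3.22), KLK5 with 1.39 (0 to 3.05), KLK6 with 0.344, KLK14 with 0.286, KLK7 with 0.251 and KLK13 with 0.130, and all neighbours in it overlapped. With the longest protein-coding transcript as the length, KLK10 had 16.4 and 2.61 normalized counts per kb in the 2 lines.

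All 10 members are on the minus strand within a cluster of 265.1 kb that runs from KLK1 to KLK14, at 50819146 to 51084245 on chromosome 19 of hg38. Of the 16 protein-coding genes annotated in the cluster, 6 had no read and KLK10 was the 1 tested. The 6 other kallikrein genes of the cluster were also below the filter. KLK3, which encodes prostate-specific antigen, and KLK4 had no read, and KLK2 had 6 reads in all, with 1.07, 0 and 0 normalized counts in KYSE450 and 1.85, 3.06 and 0 in KEAP1null-KYSE450.

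Within 500 kb of either end of the cluster, 38 protein-coding genes start, and 16 of them were tested. By limma none was called lower and 3 were called higher, all on the KLK1 side. Of all genes tested, 12.2% were called higher and 5.98% lower. By the adjusted p alone 4 of the flanking genes were lower and 4 higher, where 8311 of all 16701 genes passed. NAPSA, which encodes the aspartic protease napsin A, rose by 1.81 on the log2 scale (12.2 ± 4.98 to 44.3 ± 16.6 normalized counts, adjusted p = 0.0058). C19orf81 rose by 1.61 (adjusted p = 0.0080), but was not called without KEAP1null-KYSE450 library 2 (1.21, adjusted p = 0.051) or with untrended eBayes (adjusted p = 0.053). CLEC11A, a growth factor gene, rose by 1.36 (58.5 ± 19.4 to 146 ± 14.9 normalized counts, adjusted p = 0.0014), but was not called with quantile normalization (0.98). The tested gene nearest to KLK14, CTU1, a tRNA-modifying enzyme, had 227 and 204 normalized counts (log2 fold change -0.14, adjusted p = 0.58). EMC10, a subunit of the membrane protein complex of the endoplasmic reticulum, passed the p threshold only, with a log2 fold change of -0.92 (adjusted p = 0.00010). It was called lower without KEAP1null-KYSE450 library 1 (-1.07), and FAM71E1 was called higher without that library (1.05) or without KYSE450 library 1 (1.05). EMC10, FAM71E1 and CTU1 were chosen after their values were seen.

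**Figure D4:**
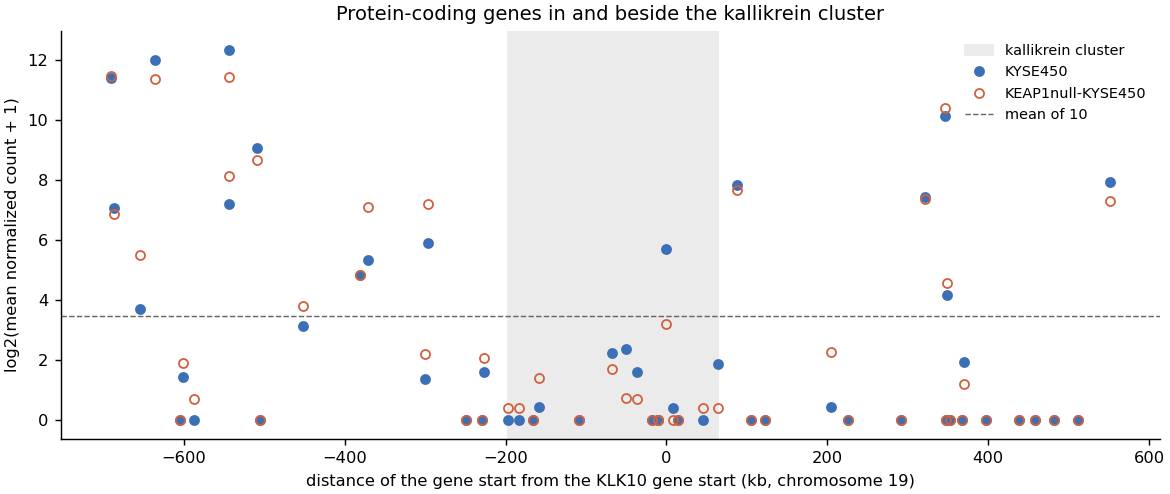
Mean level of each protein-coding gene in and beside the kallikrein cluster (grey), as log2 of the mean normalized count plus 1, against the distance of its start from that of KLK10; filled blue points are KYSE450 and open orange points KEAP1null-KYSE450, each the mean of 3 libraries. KLK10 in KYSE450 is the 1 point of the cluster above a mean of 10, while expressed genes lie on both sides.

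Of 14 genes for inhibitors of these proteases, 5 were tested. SLPI, the secretory leukocyte protease inhibitor, was called higher and none was called lower. The median log2 fold change was -0.12 against 0.0041 over all genes tested. Of all genes tested 12.2% were called higher and 5.98% lower, shares to set beside the counts of this and the following lists. SLPI had 62.0, 85.9 and 39.2 normalized counts in KYSE450 and 687, 815 and 902 in KEAP1null-KYSE450, a log2 fold change of 3.72 (standard error 0.25, limma adjusted p = 1.4e-07). SPINK5, the gene of the kallikrein inhibitor LEKTI, had 167, 136 and 170 normalized counts in KYSE450 and 136, 197 and 113 in KEAP1null-KYSE450, so the groups overlapped (log2 fold change -0.12, 95% interval -0.61 to 0.38, adjusted p = 0.69). SPINT1, which encodes the inhibitor HAI-1, passed the p threshold only, with 3474 ± 538 against 1952 ± 286 normalized counts (log2 fold change -0.83, adjusted p = 0.00026); it was chosen after its values were seen.

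Of 12 genes for proteases that activate kallikreins or lie upstream of them, 7 were tested, 3 were called higher and 1 lower, with a median log2 fold change of 0.57. TMPRSS11E, a transmembrane serine protease of squamous epithelia, had 13.9, 22.2 and 12.1 normalized counts in KYSE450 and 173, 156 and 118 in KEAP1null-KYSE450 (log2 fold change 3.16, adjusted p = 6.4e-06). TMPRSS4 fell, with 536, 271 and 210 against 135, 169 and 110 normalized counts (log2 fold change -1.20, adjusted p = 0.0049). Library 1 of KYSE450 was the highest, and without it TMPRSS4 had a log2 fold change of -0.81 and was not called. ST14, which encodes matriptase, an activator of KLK5 precursor, missed the fold threshold, with 1684 ± 253 against 856 ± 172 normalized counts (log2 fold change -0.98, adjusted p = 0.00019). ST14 was called lower without KYSE450 library 2 (-1.003), KYSE450 library 3 (-1.08) or KEAP1null-KYSE450 library 1 (-1.14).

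The other 2 called members of that list, chosen after their values were seen, were low. TMPRSS13 had 0, 0 and 2.80 normalized counts in KYSE450 and 17.5, 31.6 and 29.3 in KEAP1null-KYSE450 (limma adjusted p = 0.00086), and fell under the filter without KEAP1null-KYSE450 library 2. HPN, which encodes hepsin, had 15, 0 and 0 against 8.30, 20.4 and 19.2 normalized counts, groups that overlapped (adjusted p = 0.048). It was called in none of the fits that left out 1 library: its adjusted p was 0.12 without KYSE450 library 3, 0.14 without KYSE450 library 2 and 0.056 without KEAP1null-KYSE450 library 1, and it fell under the filter without any of the other 3.

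Of 12 substrates, 8 were tested, 1 was called higher and 2 lower, with a median log2 fold change of -0.36. DSG1, the desmosomal cadherin of upper squamous layers, had 42.8, 56.6 and 30.8 normalized counts in KYSE450 and 144, 111 and 156 in KEAP1null-KYSE450 (log2 fold change 1.67, adjusted p = 0.00037). F2RL1, the gene of the protease-activated receptor PAR2, had 6912, 6749 and 7728 normalized counts in KYSE450 and 1606, 1341 and 1294 in KEAP1null-KYSE450. F2RL1 fell by 2.34 on the log2 scale (standard error 0.11, adjusted p = 4.3e-09), and F2R, the gene of PAR1, fell by 1.24 (adjusted p = 1.5e-05).

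The corneodesmosin gene CDSN had 1 read in all. DSC1, the desmocollin of the same junctions, was below the filter with 0 normalized counts in each KYSE450 library and 12.9, 17.3 and 2.02 in KEAP1null-KYSE450; it was chosen after its values were seen. CDH1, the gene of E-cadherin, passed the p threshold only, with a log2 fold change of -0.82 (adjusted p = 0.0022), and was called lower without KEAP1null-KYSE450 library 1 (-1.04).

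Of 16 genes of the upper squamous layers, 8 were tested, 1 was called higher and 3 lower, with a median log2 fold change of -0.35. KRT4, the keratin of suprabasal esophageal cells, rose from 634 ± 86.3 to 22750 ± 1555 normalized counts (log2 fold change 5.17, adjusted p = 2.3e-12). Its usual partner KRT13 fell from 128790 ± 23121 to 48425 ± 2372 (log2 fold change -1.40, adjusted p = 4.6e-06), and EMP1, an epithelial membrane protein gene, fell by 1.83 (adjusted p = 2.4e-06). SPRR3, a cornified envelope gene of the esophagus, had 65.2, 35.4 and 69.0 normalized counts in KYSE450 and 0 in each KEAP1null-KYSE450 library, at least 19.2-fold lower when 3 reads a library are taken as the floor (adjusted p = 1.5e-05). SPRR3 passed the filter through KYSE450 alone and was chosen after its values were seen.

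Of 9 hormone receptor genes, 7 were tested, 1 was called higher and 0 lower by limma, with a median log2 fold change of -0.24; by the adjusted p alone 1 was higher and 2 were lower. RXRA, the partner of the retinoid and vitamin D receptors, had 3912, 2964 and 3060 normalized counts in KYSE450 and 7981, 7510 and 7485 in KEAP1null-KYSE450, and rose by 1.22 on the log2 scale (standard error 0.11, adjusted p = 2.6e-06). The 2 that passed the p threshold only, chosen after their values were seen, were VDR, the vitamin D receptor gene, with a log2 fold change of -0.71 (adjusted p = 0.00098), and NR3C1, the glucocorticoid receptor gene, with -0.40 (adjusted p = 0.0033).

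**Figure D5:**
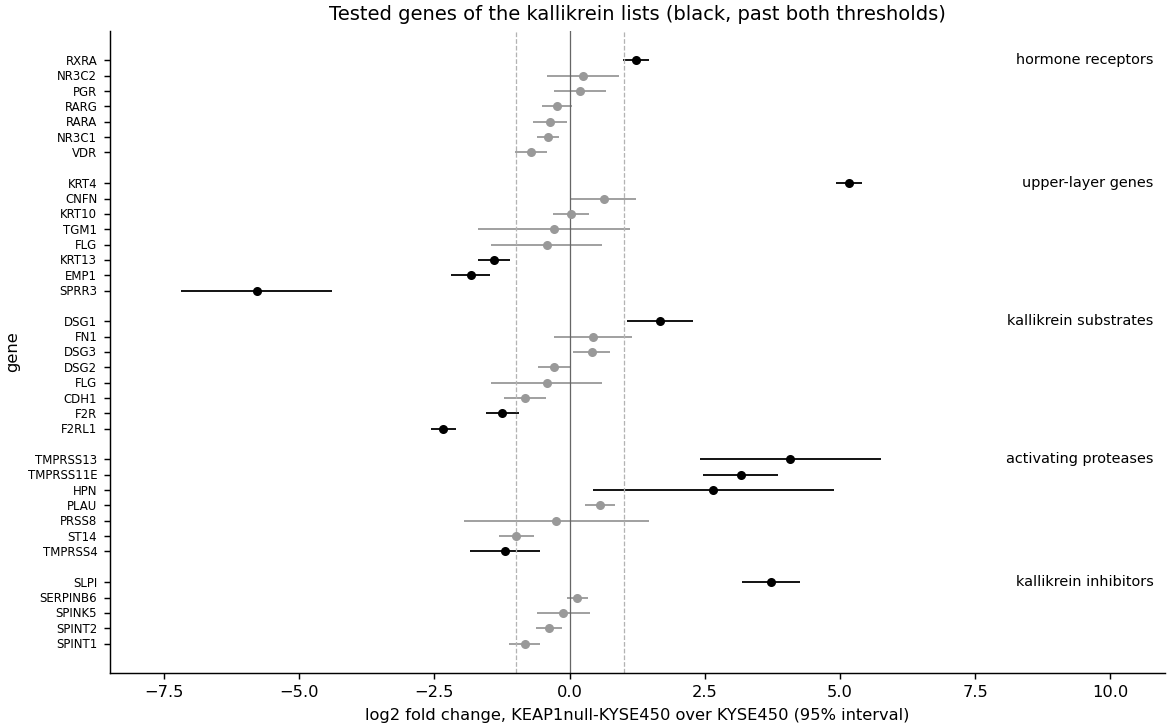
Log2 fold change of each tested gene of the 5 lists, KEAP1null-KYSE450 over KYSE450, with limma 95% intervals; black marks genes called, past both thresholds, grey the rest, and dashed lines stand at a log2 fold change of 1 in either direction. KRT4 lies farthest to the right, at 5.17, and SPRR3 farthest to the left, at -5.79, an estimate that rests on 0 counts in KEAP1null-KYSE450. SPINK5 stands between them at -0.12.

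No promoter window was available for KLK8, and RefSeq gave 16 windows of 300 bases for the other 9 members, several of which overlap. Their CpG count ran from 2 to 23 with a median of 10, against a median of 14 over 34943 windows of all genes (quartiles 4 and 28). The antioxidant response element, to which NRF2 binds with small MAF proteins, was searched as its core TGACNNNGC on both strands. It was in 5 of the 16 windows, of KLK7, KLK12 and KLK13, and in 13.3% of all windows. The 5 windows hold 4 different matches, read here on the strand that matches with 10 bases on each side and the fixed letters of the core in capitals. The first match below is shared by overlapping KLK7 windows. KLK7, KLK12 and KLK13 had 8, 0 and 1 reads in all, and KLK10 had no match in its 2 windows. Whether NRF2 acts on any member through this element was not tested.
KLK7 at chr19:50984046-50984054, plus strand: tctggaacccTGACgcaGCgagagcaatt
KLK7 at chr19:50983781-50983789, minus strand: gctccaagccTGACtctGCtctcgagagg
KLK12 at chr19:51035016-51035024, plus strand: gacagaccacTGACaaaGCtcttaactct
KLK13 at chr19:51065020-51065028, plus strand: tcttacctccTGACaagGCcaaggtcagg

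The AP-1 motif TGANTCA, whose letters can overlap those of the element, was in 0 of the 16 windows and in 7.72% of all windows. A match describes letters and not a bound site, and its absence says only that these letters are not in the window.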

How the data were processed

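RNA sequencing libraries of KYSE450 and KEAP1null-KYSE450 cells were analysed, 3 of each. The authors deposited 1 matrix of normalized counts (a signal for each gene in each library) after aligning reads to hg38 with STAR and counting them with featureCounts (versions 2.6.90c and 1.5.1 per the submitters' processing notes). Its values were whole multiples of the step of their library (100% within 0.001 of a whole number), and these multiples are the reads given here. In library 2 of KYSE450 and library 3 of KEAP1null-KYSE450 the step was nearer to 1 than the check of recovered reads allowed. Count tests therefore left these libraries out. Columns are named by line, without replicate numbers, and libraries are numbered in column order. No batch is named in the labels.

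Genes with a mean of at least 10 were tested with limma (3.58.1, R 4.3.3, trended eBayes) after adding 1 and taking log2, with Benjamini-Hochberg adjustment over all 16701 genes, and called past thresholds of 0.05 for the adjusted p and 1 for the log2 fold change in either direction. Log2 fold changes on this scale understate the change of low genes. The tests were first tried on simulated data. Each library was left out in turn. Further alternatives were a pseudocount of 0.1 or 10, a minimum mean of 100 or none, quantile normalization, a common total, untrended eBayes, calls by p alone, a null hypothesis of a change up to 2-fold, and edgeR (4.0.16) and DESeq2 (1.42.0) on 4 libraries. Single low genes were compared by exact permutation (scipy 1.17.1). Positions and exon lengths came from gencode v44 and promoters from RefSeq. The paper names a RefSeq annotation for the counting, while the rows carry Ensembl identifiers. The gene models used for counting, and so the exon lengths and overlaps, may differ from those used here. The labels list the build mm10 beside hg38.

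Named genes were the 10 members, KEAP1, NFE2L2 and NQO1, up to 3 called genes in each direction per list whose higher line averaged 100 or more, and SPINK5, ST14, DSG1, CDSN and F2RL1. Of flanking genes, those called were named by the same order. The members and lists were chosen with earlier results of these data known. From the lists, 1 gene was taken out and is not reported here.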

Additional observations from a re-analysis of the deposited data

How the results depend on the processing

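KLK10 kept its direction under all 16 alternatives that tested it and its call under 15. The exception was the test against a fold change of 2, with which 0 members were called. That test, no minimum mean, untrended eBayes and calls by p alone leave the estimate of KLK10 at -2.69, so they could not turn its direction. Calls by p alone use the same fit, so a called gene could not lose its call there. With a minimum mean of 100 no member was tested. The number of genes called overall was 1558 with that minimum, 8311 without a fold change cutoff and 1021 against a fold change of 2. In the same order, the flanking genes called were 1, 8 and 0, and between 2 and 5 with a library left out (2 without KEAP1null-KYSE450 library 2, 5 without KEAP1null-KYSE450 library 1). Activating proteases numbered 1 with a minimum mean of 100, 2 against a fold change of 2 and 2 to 4 with a library left out (2 without KYSE450 library 1 or KEAP1null-KYSE450 library 2). Without a fold change cutoff, 3 inhibitors, 5 substrates and 3 hormone receptors were called. Against a fold change of 2, 1 substrate and 0 hormone receptors were called, and without the filter 5 substrates. Over 19 named genes, 294 of 318 alternatives kept direction and side of the threshold, 13 lost and 5 gained a call, and 6 turned a sign. That total includes the settings that leave estimates unchanged and could not turn a sign. KEAP1 ranged from -0.072 to 0.040 and SPINK5 from -0.34 to 0.058 with a library left out. The sign of KEAP1 turned with quantile normalization (0.14), a common total (0.016) and without KYSE450 library 1 (0.034) or KEAP1null-KYSE450 library 2 (0.040), and that of SPINK5 with edgeR (0.015) and without KEAP1null-KYSE450 library 3 (0.058). The cause of these changes was not tested. No paired analysis was possible because the columns carry no replicate number. Among the limits, 9 of the 10 members had few or no reads, 1 clone stands for the edit, and mRNA counts say nothing of the secreted or activated proteases.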
